A study of Mus musculus with 2 samples.

Results

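Plasma cells were the antibody-secreting cells found among sorted lamina propria cells of the intestine in 2 libraries, 1 of each genotype. A barcode was taken as a plasma cell when it had at least 3000 UMIs (unique molecular identifiers, each a tagged RNA molecule), at most 20% mitochondrial UMIs, at least 20 UMIs of Jchain, at least 1 of Mzb1, none of Ms4a1, none of Pdgfra and at most 1 of Epcam. The members were thus chosen by their measured UMIs of these genes, and their levels of them are a description. This gave 945 plasma cells among 13168 barcodes that passed the UMI and mitochondrial limits. The library ApcMin came from mice labelled ApcMin/+;Lef1 +/+ and held 437 of them, and the library VApcMinL came from mice labelled ApcMin/+;Lef1 fl/fl; Villin-Cre and held 508. Both groups were C57BL/6 mice labelled as 11 weeks old, although a slightly younger age is also given for these cells in the description of the study, and both carried the ApcMin mutation, which gives intestinal adenomas. Villin-Cre acts in the intestinal epithelium, so the plasma cells of VApcMinL were not themselves the target of the Lef1 deletion, and ApcMin mice with Villin-Cre alone were not analysed here. The cells had been sorted as negative for DAPI, Ter119, Epcam and CD45, and the sources used here do not say how many mice were pooled for either.

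Plasma cells are the end stage of the B cell lineage. The factors Blimp1, Xbp1 and Irf4 switch off the B cell program and enlarge the endoplasmic reticulum (ER), where antibody chains are folded, glycosylated and quality-checked before secretion. In the gut most plasma cells make IgA, whose dimers are joined by the J chain (Jchain) and carried across the epithelium by the polymeric immunoglobulin receptor (Pigr). With 1 library per genotype no test between genotypes was possible, and every interval given is an exact 95% interval that covers counting error only. The genotype and every other difference between the 2 preparations cannot be told apart.

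Levels of the marker genes were as follows. Jchain, which the rule used, had a median of 547 UMIs per cell in ApcMin (lowest 29, highest 3207) and 343.5 in VApcMinL (lowest 30, highest 2117). The heavy chain gene Igha and the light chain gene Igkc, which the rule did not use, had medians of 1304 and 3522 UMIs in ApcMin and of 1040 and 2300 in VApcMinL, and every member had UMIs of both. Of barcodes that met the rest of the rule, 3 in ApcMin and 5 in VApcMinL had 10 to 19 Jchain UMIs, just outside the limit, and 1 and 4 had 20 to 39, just inside it. Immunoglobulins gave a median of 0.326% and 0.997% of the UMIs of the former and of 80.5% and 5.46% of the latter. Plasma cells shared no barcode between the libraries, and 1 of their barcodes recurred among the passing barcodes of the other library.

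Some members carried RNA of other cell types, and results between genotypes are therefore given with and without them. A barcode was called mixed when it held at least 10 UMIs of the markers of fibroblasts, endothelial cells, T cells and innate lymphoid cells (ILC), myeloid cells, epithelial cells, smooth muscle or glia, or at least 50 UMIs of erythroid genes, a rule added after seeing the data. These were 26 of 437 cells in ApcMin (5.95%) and 75 of 508 in VApcMinL (14.8%). Myeloid markers were the most frequent in VApcMinL, with 48 cells against 7 in ApcMin, and erythroid genes in ApcMin, with 15 cells against 9. Epithelial markers reached the limit in 0 and 4 cells and T cell and ILC markers in 1 and 3. Mixed barcodes had a lower median share of immunoglobulin, 44.5% and 49.2%, than the other members with 78.1% and 78.3%. Although few, they supplied 23.0% of the UMIs of genes other than immunoglobulins in ApcMin and 40.1% in VApcMinL.

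Messenger RNA for antibodies made up most of what these cells contained. All immunoglobulin genes and Jchain together took a median of 77.6% of a plasma cell's UMIs in ApcMin (quartiles 73.2 and 81.4%, range 11.3 to 93.3%) and 77.3% in VApcMinL (quartiles 71.0 and 81.8%, range 3.08 to 91.4%). The medians thus differed by far less than the spread among cells of either library. In mature B cells, defined by Ms4a1 and Cd79a with Jchain below 20 UMIs (573 and 297 cells), the median was 1.25% and 1.41%. The free RNA of the empty droplets, barcodes with 10 to 100 UMIs, held 11.1% and 4.85% immunoglobulin UMIs. Cells of ApcMin had more UMIs, with a median of 7385 against 5040, and over all members the median share was 79.0%, 77.6% and 77.4% at 3000 to 5000, 5000 to 10000 and at least 10000 UMIs in ApcMin and 77.9%, 77.4% and 66.5% in VApcMinL. The median without mixed barcodes was not taken in these same classes. The other members were instead cut into 4 parts of near-equal size, from the cells with fewest UMIs to those with most. Their median was 78.9%, 78.3%, 77.4% and 78.1% in ApcMin and 78.4%, 78.2%, 77.9% and 78.9% in VApcMinL. The deepest part of VApcMinL had a median of 8387 UMIs, so it is not the class of at least 10000.

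**Figure D1:**
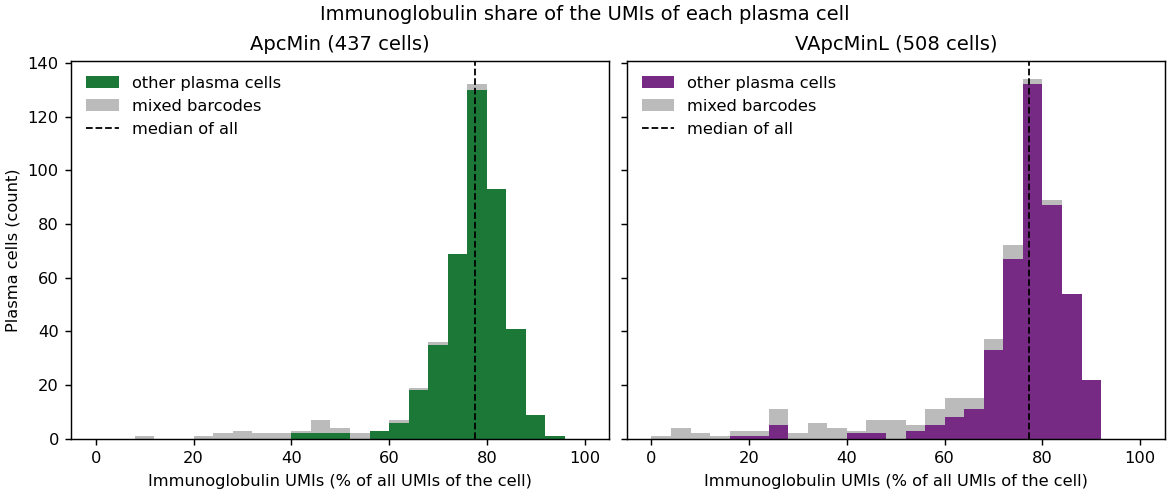
Number of plasma cells (vertical axis) by the percentage of their UMIs that came from immunoglobulin genes and Jchain (horizontal axis, bins of 4 percentage points), with mixed barcodes in grey and the median of all members as a dashed line. Both libraries peaked at the same place, with medians of 77.6% and 77.3%, and the low tail was mostly mixed barcodes.

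Because so few UMIs were left for other genes, the levels below are CPM, counts per 1000000 UMIs that are not from immunoglobulin genes or Jchain, summed over the plasma cells of a library. A plasma cell had a median of 1644 such UMIs in ApcMin and 1222 in VApcMinL, against 4809 and 4566 in a mature B cell. The median number of detected genes was 692 and 569.

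IgA was the only isotype that dominated in any member. Igha, on chromosome 12 (113254830 to 113260236, minus strand, GRCm38), gave at least 50% of the heavy chain constant UMIs in 437 of 437 cells of ApcMin (interval from 99.2%) and in 508 of 508 of VApcMinL (interval from 99.3%). The same cells passed when 80% was asked. Over the summed cells Igha gave 99.86% of heavy constant UMIs in each library. Ighm, the constant gene of IgM, had 151 UMIs in 42 cells and 295 UMIs in 51 cells, which is 40.2 and 92.1 CPM of all UMIs and below the 320.0 and 452 found in empty droplets. Ighg2b had 736 UMIs in 89 cells of ApcMin and 538 in 97 cells of VApcMinL, at most 72 and 61 in 1 cell. Its level of 196 and 168 CPM of all UMIs lay above the empty droplets with 79.5 and 53.4. Ighd, Ighg1 and Ighg3 had at most 39 UMIs in either library, and Ighg2c and Ighe had 0. Among passing barcodes outside the members with at least 200 heavy chain UMIs, Igha was highest in 112 of 112 and in 189 of 190. Barcodes that the rule excluded thus carried the same isotype.

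Light chains sorted the cells cleanly. Each mature B lineage cell normally keeps 1 light chain, kappa from Igkc or lambda from the Iglc genes. Kappa was dominant in 426 plasma cells of ApcMin (97.5%, 95.5 to 98.7%) and 500 of VApcMinL (98.4%, 96.9 to 99.3%). Lambda was dominant in 11 (2.52%, 1.26 to 4.46%) and 8 (1.57%, 0.682 to 3.08%), so the intervals of the 2 libraries overlapped. Lambda cells held a median of 3054 and 2171 lambda UMIs and only 22 and 17 of Igkc, while kappa cells held 3579 and 2328 of Igkc and 20.5 and 11 of lambda. A single cell of ApcMin, with 47.1% lambda, lay between 20 and 80%, and none of VApcMinL did. The variable gene Iglv1 had a median of 9 and 5 UMIs in kappa cells and 38 and 13 in lambda cells.

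**Figure D2:**
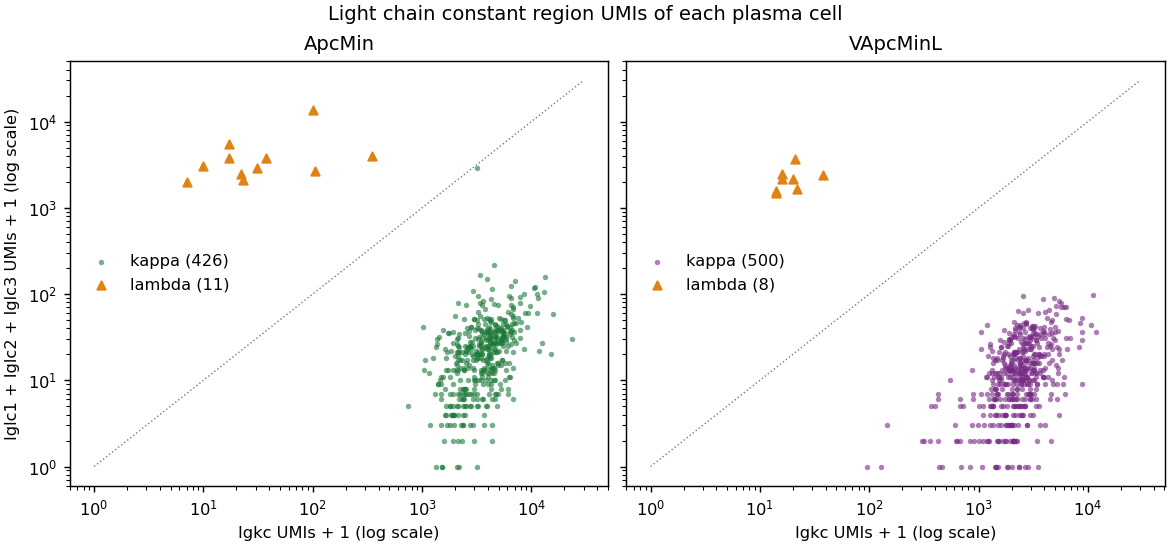
UMIs of the lambda constant genes (vertical axis, log scale) against UMIs of Igkc (horizontal axis, log scale) in each plasma cell, with 1 added to both and lambda-dominant cells as triangles. The 11 and 8 lambda cells stood apart from the 426 and 500 kappa cells, with 1 cell of ApcMin near the diagonal of equal UMIs.

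The chains of secreted IgA were counted in different amounts. Among kappa cells the median ratio of Igkc to Igha UMIs was 2.67 in ApcMin (quartiles 2.13 and 3.41) and 2.23 in VApcMinL (1.68 and 2.82). The ratio of Jchain to Igha was 0.403 (0.298 and 0.533) and 0.336 (0.223 and 0.455). Both ratios had quartile ranges that overlapped between the libraries.

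Variable gene use showed a broad repertoire with repeated combinations. A cell was assigned the variable gene that gave at least 50% of at least 10 UMIs of its locus. A heavy chain gene (Ighv) could be assigned in 298 cells of ApcMin, with 56 different genes, and in 180 of VApcMinL, with 39. A kappa gene (Igkv) could be assigned in 380 and 255 cells, with 53 and 39 genes. The median cell had 14 Ighv UMIs in ApcMin and 7 in VApcMinL, so fewer cells of VApcMinL could be assigned. Near-identical variable genes share reads, which makes single assignments uncertain.

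The leading genes differed in rank between the libraries. Ighv3-6 was found in 42 cells of ApcMin (14.1%, 10.4 to 18.6%) and 14 of VApcMinL (7.78%, 4.32 to 12.7%). Ighv10-3 was found in 6 cells (2.01%, 0.742 to 4.33%) and 30 cells (16.7%, 11.5 to 22.9%), and Ighv1-19 in 7 (2.35%) and 22 (12.2%). Ighv1-82 was alike, with 16 (5.37%) and 10 cells (5.56%). These genes were named by their rank, and the intervals treat each cell as an independent draw, which related cells would not be. Ighv1-76 was found in 20 (6.71%) and 3 (1.67%), Ighv1-54 in 17 (5.70%) and 1 (0.556%) and Ighv14-2 in 15 (5.03%) and 1 (0.556%). The other leading genes of VApcMinL were Ighv1-66 in 0 of 298 (up to 1.23%) and 11 (6.11%), Ighv1-39 in 7 (2.35%) and 10 (5.56%) and Ighv1-53 in 6 (2.01%) and 10 (5.56%). Of the kappa genes, Igkv6-23 was in 37 cells (9.74%, 6.95 to 13.2%) and 53 cells (20.8%, 16.0 to 26.3%), and Igkv10-96 in 44 (11.6%) and 24 (9.41%). Igkv1-117 was in 34 cells of ApcMin (8.95%) and in 0 of 255 of VApcMinL, where the exact interval reaches 1.44%. Igkv19-93 was in 26 (6.84%) and 3 (1.18%). Igkv1-88 was the reverse, in 0 of 380 cells of ApcMin, where the exact interval reaches 0.966%, and 16 of VApcMinL (6.27%, 3.63 to 9.99%), and Igkv8-21 was in 4 (1.05%) and 19 (7.45%). Igkv14-100 was in 23 (6.05%) and 0, with the same upper bound as Igkv1-117, Igkv12-46 in 5 (1.32%) and 10 (3.92%) and Igkv1-110 in 16 (4.21%) and 9 (3.53%).

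Heavy and kappa genes could both be assigned in 260 and 118 cells, which held 121 and 52 distinct pairs. Pairs seen in at least 2 cells covered 181 cells of ApcMin (69.6%) and 86 of VApcMinL (72.9%). The most frequent pair was Ighv3-6 with Igkv5-48 in ApcMin, in 15 of 260 cells (5.77%, 3.27 to 9.34%). In VApcMinL it was Ighv10-3 with Igkv1-88, in 15 of 118 cells (12.7%, 7.29 to 20.1%), followed by Ighv1-19 with Igkv6-23 in 14 (11.9%). Only 7 pairs, 5.79% of the pairs of ApcMin and 13.5% of those of VApcMinL, were seen in both libraries. Cells with the same pair cannot be called a clone from these counts, because the junction sequences were not read, and animals also differ in their repertoires, which cannot be told apart from genotype here.

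**Figure D3:**
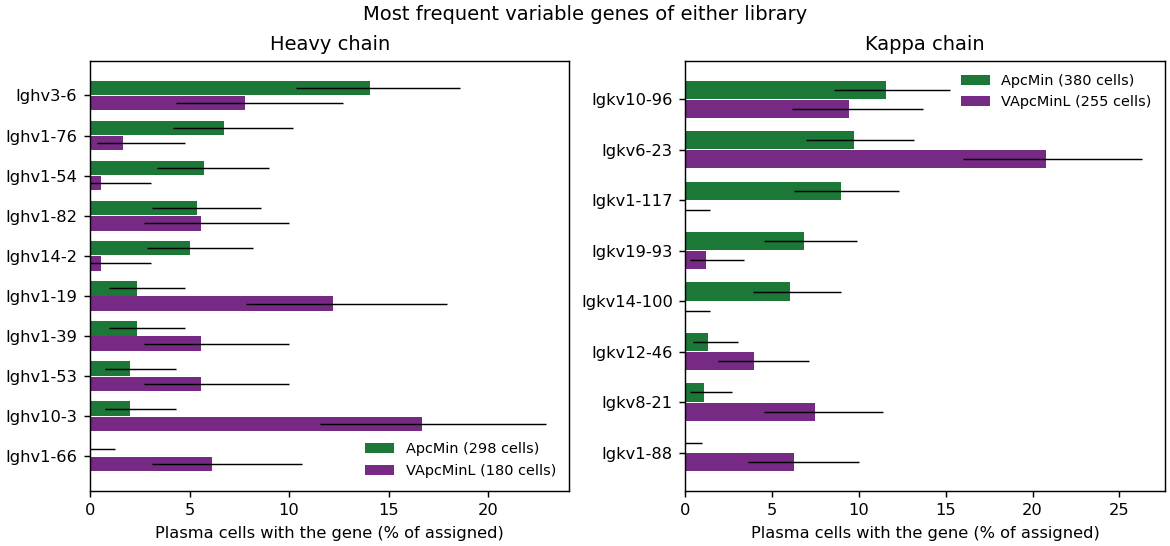
Percentage of assigned plasma cells that used each variable gene (bars, with exact 95% binomial intervals as lines), for heavy chain genes on the left and kappa genes on the right that ranked among the 5 most frequent, ties included, in either library. Ighv10-3 and Igkv6-23 led in VApcMinL with 16.7% and 20.8%, and Ighv3-6 and Igkv10-96 in ApcMin with 14.1% and 11.6%.

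Plasma cells were next set against mature B cells of the same library, their closest relatives in the sort, to describe which programs they carried. Because the members were chosen from these same cells, the folds are descriptions without a test. Of 4372 genes with at least 200 UMIs in both classes together, 514 (11.8%) were at least 2-fold higher in plasma cells in both libraries and 992 (22.7%) at least 2-fold lower in both. The median gene had a log2 ratio of -0.52 in ApcMin and -0.35 in VApcMinL. Leaving out mixed barcodes gave 573 higher and 1394 lower.

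Transcription factors of the plasma cell state were split. Of 8 measured members of the list, 5 were at least 2-fold higher in both libraries and 2 at least 2-fold lower, with median log2 ratios of 1.74 and 1.56. Xbp1, the factor that expands the ER, had 4110 CPM in ApcMin and 2859 in VApcMinL against 96.7 and 87.1 in B cells, a log2 ratio of 5.41 and 5.04. Prdm1, which encodes Blimp1, had 103 and 86.6 CPM against 17.2 and 17.9 (2.58 and 2.28). Its summed count was 106 and 88 UMIs, so it was not detectable in most single cells at this depth. Ell2, an elongation factor that favours the secreted form of the heavy chain, had log2 ratios of 2.38 and 2.06, and Creb3l2, a membrane-bound factor of the secretory pathway, 4.14 and 3.16. Pou2af1, a coactivator of immunoglobulin genes, had 1.09 and 1.05.

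Bhlha15 (Mist1), a factor of secretory cells, had 47.6 and 36.4 CPM against 0.302 and 0.541 in B cells, which stood on only 1 UMI in each B cell group. With 86 UMIs in the plasma cells it was below the minimum of 200. Ikzf3 and Ikzf1, lymphoid zinc finger factors, were lower in plasma cells, with log2 ratios of -2.09 and -1.74 and of -1.44 and -1.51. Irf4 was lower as well in ApcMin, with 79.7 CPM against 209 in B cells (-1.39), and had 75.8 against 140 (-0.88) in VApcMinL. Without mixed barcodes, 1 of 19 immediate early and heat shock genes was 2-fold above B cells in both libraries and 5 were 2-fold below. The list medians were -0.99 and -0.31 on the log2 scale. Nr4a1 had 393 and 378 CPM in B cells, with log2 ratios of -3.28 and -2.68 without mixed barcodes. Fosb had 1.90 and 1.07 in the same setting. A link to the level of Irf4 was not tested.

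The ER folding machinery was high throughout. Of 24 measured folding genes, 21 were at least 2-fold above B cells in both libraries and none was 2-fold below, with median log2 ratios of 2.66 and 2.26. Hsp90b1 (Grp94), an ER chaperone, had 5349 CPM in ApcMin and 3496 in VApcMinL against 582 and 494 in B cells (3.20 and 2.82). Hspa5 (BiP), the main ER chaperone, had 2769 and 2078 CPM against 1073 and 930 (1.37 and 1.16). Txndc5, a disulfide isomerase, had 3400 and 2948 CPM against 32.6 and 44.9 (6.70 and 6.04). Chaperones that B cells also use thus had smaller folds than Txndc5, which was low in B cells. Fkbp11, a prolyl isomerase of secretory cells, had 381 and 269 CPM against 3.02 and 3.79 (6.98 and 6.15), and Manf, an ER stress-induced factor, had log2 ratios of 3.19 and 2.72.

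Promoters of some of these genes hold the ER stress response element, which the factors Atf6 and Xbp1 are known to use through NF-Y. It was searched as CCAAT, 9 bases of any kind, then CCACG, on both strands of the RefSeq promoters (GRCm38.p6, 250 bases before to 50 after the start). The element was found in 37 of 27025 genes (0.137%), in 8 of 25 folding genes with a promoter sequence (32.0%) and in 2 of 16 genes of the unfolded protein response and ER-associated degradation (12.5%). It was found in 0 of 8 plasma cell factors, 0 of 21 translocation genes, 0 of 18 transport genes, 0 of 17 homing receptors and 0 of 13 B cell genes with a sequence. The other member lists thus had no match to these letters in this window. The windows below show it for 4 genes at least 2-fold above B cells in both libraries and for 2 that were not, with the element's 2 conserved ends in capitals and 20 bases on each side. The base before the transcript start counts as -1. For Derl3 the bases after this start were not found in the transcripts checked, unlike for the other genes shown. A match anywhere in a transcript counted, so it does not settle where a start lies. In the gene annotation Hspa5 begins at 34771970, before its window, so its element lies inside that annotated gene. Derl3 begins there at 75893413, after its window. The positions given hold for the RefSeq start only. Hsp90b1 holds a further copy from -212 to -194 on the gene strand, not shown.
Hspa5, chr2:34772005-34772063, plus strand, element from -65 to -47: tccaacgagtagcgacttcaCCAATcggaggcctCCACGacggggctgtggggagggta
Hsp90b1, chr10:86705513-86705571, minus strand, element from -107 to -89 on the opposite strand: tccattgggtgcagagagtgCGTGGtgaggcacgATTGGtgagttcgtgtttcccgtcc
Creld2, chr15:88819500-88819558, plus strand, element from -126 to -108 on the opposite strand: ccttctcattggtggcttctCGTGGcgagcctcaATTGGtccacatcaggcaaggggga
Derl3, chr10:75893222-75893280, plus strand, element from -156 to -138 on the opposite strand: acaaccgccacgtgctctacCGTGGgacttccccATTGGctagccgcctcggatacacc
Canx, chr11:50325780-50325838, minus strand, element from -145 to -127: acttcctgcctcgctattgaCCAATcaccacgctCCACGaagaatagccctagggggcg
Ero1lb, chr13:12565662-12565720, plus strand, element from -201 to -183 on the opposite strand: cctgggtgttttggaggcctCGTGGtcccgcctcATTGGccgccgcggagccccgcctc

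Genes with the element were not all above B cells. Creld2, an ER stress-induced folding factor, had 718 and 412 CPM against 19.0 and 21.1 (log2 ratio 5.24 and 4.28), and Derl3, a channel component of ER-associated degradation, had 566 and 491 against 5.74 and 10.3 (6.62 and 5.58). Canx, the lectin chaperone calnexin, had 232 and 268 CPM against 221 and 217 (0.07 and 0.31). Ero1lb, an ER oxidase named Ero1b in RefSeq, had 118 and 78.7 CPM against 149 and 122 (-0.34 and -0.64). Calr, Syvn1, Dnajc3 and Pdia6 also hold the element and are not shown above. Without mixed barcodes Calr had log2 ratios of 1.38 and 0.86 and Syvn1 of 0.98 and 1.09, so neither passed 2-fold in both libraries. Dnajc3 had 3.84 and 3.59 and Pdia6 2.96 and 2.52 in that setting. Presence of the element thus was seen at folds far above and near 1, and Txndc5, Fkbp11 and Manf were high with no match to it. The shorter element TGACGTGG was searched too and found in 193 genes (0.714%), among them Txndc5, Txndc11, Sec24d, Kdelr3, Copb2 and Pou2af1.

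The remaining steps of secretion followed the same direction. Of 27 genes of translocation into the ER and N-glycosylation, 24 were at least 2-fold above B cells in both libraries and none 2-fold below (median log2 ratio 2.65 and 2.05). Ssr4, a subunit of the translocon-associated complex, had 3959 and 3753 CPM against 147 and 194 (4.76 and 4.28). Sec11c, of the signal peptidase, had 3469 and 3002 against 116 and 136 (4.90 and 4.47), and Sec61b, of the channel itself, had log2 ratios of 3.16 and 2.80. Of 19 genes of ER to Golgi transport 11 were 2-fold above in both and none below. The cargo receptor Lman1 had log2 ratios of 4.66 and 3.72 and the coat adaptor Tmed10 had 2.51 and 2.39.

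The unfolded protein response was uneven. Of 14 measured genes of this response and of ER-associated degradation 8 were 2-fold above in both libraries and none below. Without mixed barcodes 9 were above and 1 below. The mannosidase-like degradation factors Edem2 and Edem1 had 1188 and 893 CPM against 16.0 and 16.8 (6.21 and 5.73) and 1045 and 886 against 43.2 and 37.3 (4.60 and 4.57). Herpud1, which anchors the degradation complex, had 2.50 and 2.86. Some members of the list lay below B cells or near them. Eif2ak3, the Perk kinase that slows translation, had log2 ratios of -1.54 and -0.86, Ddit3 (Chop) had -1.11 and -0.79, and Atf4 had 0.22 and 0.79. Ppp1r15a had -0.71 and -0.24, or -1.21 and -1.48 without mixed barcodes.

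B cell identity was low. Of 23 measured genes none was 2-fold above B cells in both libraries and 19 were 2-fold below, with median log2 ratios of -4.48 and -3.78. Pax5, the factor that maintains B cell identity, had 6.80 CPM in ApcMin and 0.984 in VApcMinL against 314 and 290 (-5.53 and -8.20). Ccr7, a chemokine receptor, had 0.972 and 7.88 against 640 and 539. Antigen presentation genes of the list differed. Cd74, the invariant chain, had 7313 and 7131 CPM against 12407 and 11591 (-0.76 and -0.70). H2-Aa, a class II chain, had 431 and 1272 against 4087 and 3879 (-3.24 and -1.61). The 10 plasma cells with most H2-Aa held 53.5% of its UMIs, and without mixed barcodes its level was 88.4 and 100.3 CPM (-5.53 and -5.27). Cd79a, which was used to define the B cells, had 1638 and 1290 CPM against 1616 and 1607, a near-equal level for this part of the antigen receptor (0.02 and -0.32).

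Many receptors for homing and survival were above B cells. Of 21 measured genes, 13 were at least 2-fold above B cells in both libraries and 5 at least 2-fold below. Tnfrsf17 (BCMA), the survival receptor for April and Baff, had 491 and 427 CPM against 1.21 and 4.33 (8.67 and 6.62). Tnfrsf13b (TACI) had 278 and 262 against 74.9 and 88.8 (1.89 and 1.56). Tnfrsf13c (Baff receptor) went the other way, with 76.8 and 45.3 against 227 and 206 (-1.56 and -2.19). BCMA and TACI were thus higher and the Baff receptor lower than in B cells of both libraries. Sdc1 (CD138), the usual surface marker, had 493 and 409 CPM against 9.06 and 10.3 (5.76 and 5.31), and was found in 59.0% and 50.6% of plasma cells. In fibroblasts, which have a median of 13515 and 10952 UMIs outside the immunoglobulin genes against 1644 and 1222, it was found in 12.1% and 15.5%. It was also found in 77.1% and 64.7% of epithelial cells, at 124 and 39.5 CPM. These have a median of 44462 and 41901 such UMIs. After thinning to 500 such UMIs per cell the shares were 28.2% and 23.9% in plasma cells and 0.456% and 0.712% in fibroblasts.

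Gut homing receptors were both present. Ccr9, the receptor for Ccl25 of the small intestine, had 125 and 154 CPM against 1.21 and 1.62 in B cells (6.70 and 6.56). Ccr10, the receptor for Ccl28, had 519 and 440 CPM, and B cells had 0 UMIs in both libraries. Against 3 UMIs per library this is at least 572-fold higher in ApcMin and at least 271-fold higher in VApcMinL. At 500 UMIs per cell Ccr10 was found in 27.5% and 24.1% of plasma cells and Ccr9 in 3.79% and 6.02%, against at most 0.124% of fibroblasts for either gene. Ccr9 was higher in the T cells and ILC of the same libraries, with 341 and 348 CPM and shares of 16.7% and 16.3% at that depth. The integrin chain Itgb7 had 178 and 172 CPM against 44.4 and 37.9, while its partner Itga4 had log2 ratios of -0.17 and -0.08 and Itgb1 0.69 and 1.22. Receptors that hold or move lymphocytes in follicles, blood and lymph were low. Cxcr4, which keeps cells near Cxcl12, had 64.1 and 121 CPM against 665 and 565 (-3.38 and -2.22), Gpr183 had -4.69 and -3.83, S1pr1 had -6.69 and -2.81 and Cd38 -4.19 and -1.68. Without mixed barcodes Cxcr4 had 39.1 and 46.0 CPM (-4.09 and -3.62), and S1pr1, with 4 and 43 UMIs over all members, had 2 and 6 (-7.32 and -4.91). Il6ra had 20.4 and 25.6 CPM against 35.4 and 26.5.

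Other receptors of the list were high. Ly6c2 had 870 and 715 CPM against 0.302 and 0.541 in B cells (11.49 and 10.37), and Ly6a 1035 and 910 against 144 and 141 (2.84 and 2.69). Both belong to the Ly6 family of membrane-anchored proteins. Ly6c2 was found in 45.5% and 37.4% of plasma cells, and in 25.4% and 22.2% once each cell was thinned to 500 UMIs of genes other than immunoglobulins. In fibroblasts the shares were 0.618% and 0.836% before and 0.0325% and 0.0310% after thinning. The costimulatory receptor Cd28, best known from T cells, had 103 and 113 CPM against 0.907 and 0.541 (6.83 and 7.71). Slamf7 had log2 ratios of 2.68 and 3.02, Cd81 1.86 and 2.02, Cd44 1.65 and 2.53 and Cd93 1.96 and 1.63. Cxcr3 had 2 and 0 UMIs.

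Among genes with at least 200 UMIs and with UMIs in both cell types of both libraries, the 15 furthest above B cells were Ly6c2, Prg2, a, Cd28, Tnfrsf17, Ccr9, Fkbp11, Txndc5, Cacna1s, Edem2, Derl3, Sdc1, Glipr1, Gm5547 and Xbp1. Ccr10, at 0 UMIs in B cells, could not be ranked, and its lower bounds of 572-fold and 271-fold exceed the folds of most of them. Prg2, which encodes the major basic protein of eosinophil granules, had 768 and 549 CPM against 0.604 and 1.62 (10.31 and 8.40). It was found in 64.3% and 46.5% of plasma cells, while all B cells together held 2 and 3 UMIs, and its top 10 cells held 11.8% of its UMIs. The calcium channel gene Cacna1s had 244 and 125 CPM against 2.12 and 2.16 (6.85 and 5.85). The gene a (nonagouti) had 126 and 118 CPM against 0.604 and 0.541 (7.71 and 7.77). The 10 furthest below were Fcmr, the IgM receptor, with 0.972 and 2.95 CPM against 442 and 404, followed by Bcl11a, Ccr7, Blk, Pax5, Scd1, H2-Oa, H2-DMb2, Gm8369 and Treml2.

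**Figure D4:**
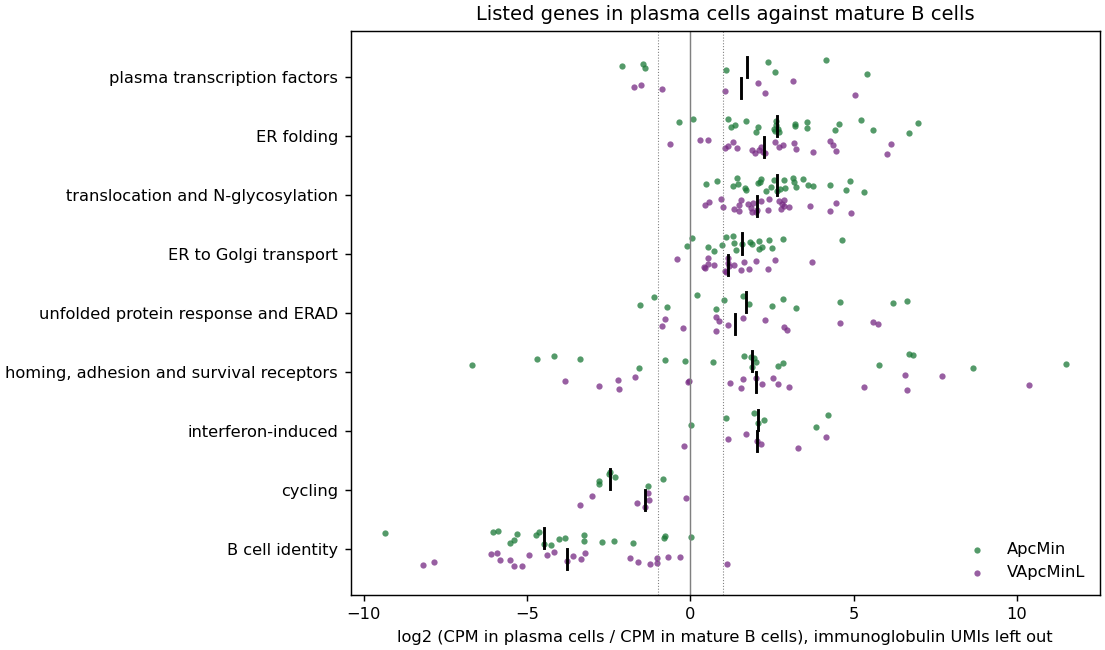
log2 ratio of CPM in plasma cells over mature B cells (horizontal axis) for each listed gene with at least 200 UMIs (1 point per gene and library), by gene list (vertical axis), with the list median over all its measured genes as a black bar and dotted lines at 2-fold. A gene with 0 UMIs in either class has no point. ER folding and translocation genes lay mostly right of the 2-fold line, with medians of 2.66 and 2.26 and of 2.65 and 2.05, and B cell identity genes left of it with -4.48 and -3.78.

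Interferon-induced and cycling genes lay on opposite sides of B cells. Of 7 measured interferon-induced genes 6 were 2-fold above in both libraries (median log2 ratio 2.07 and 2.05). Bst2 (tetherin) had 1018 and 922 CPM against 55.0 and 52.0 (4.21 and 4.15) and B2m, the class I light chain, had 5489 and 4467 against 1422 and 1360 (1.95 and 1.72). Without mixed barcodes 4 of these 6 were still past 2-fold, and the list medians were 1.96 and 1.19. Of 7 measured cycling genes 5 were 2-fold below in both, and 3 without the 1 B cell of each library with most core mitotic UMIs, which in VApcMinL held 376 of the 622 such UMIs. At least 5 UMIs of 7 core mitotic genes were found in 1 of 437 plasma cells of ApcMin (0.229%, 0.00579 to 1.27%) and in 6 of 508 of VApcMinL (1.18%, 0.435 to 2.55%), intervals that overlapped. The 6 had a median immunoglobulin share of 24.8%, and 1 of them and the 1 of ApcMin were mixed barcodes. In mature B cells 5 of 573 (0.873%) and 8 of 297 (2.69%) reached this limit. Summed over the plasma cells, the cycling list had 266 CPM in ApcMin and 585 in VApcMinL, or 252.5 and 659 without mixed barcodes. Only 2 of its genes had at least 200 UMIs in the plasma cells, and both were higher in VApcMinL. The 10 plasma cells with most core mitotic UMIs held 63.4% of these in ApcMin and 85.7% in VApcMinL. Of 5 measured apoptosis regulators none passed 2-fold in both libraries, and the survival factor Mcl1 had log2 ratios of 0.01 and 0.37. The immediate early and heat shock list had 3 of 19 genes 2-fold above and 3 below, and 1 above and 5 below without mixed barcodes.

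The sort was against CD45, which Ptprc encodes, and plasma cells carried less of its RNA than other leukocytes in the same libraries. A Ptprc UMI was found in 73 of 437 plasma cells of ApcMin (16.7%, 13.3 to 20.5%) and 106 of 508 of VApcMinL (20.9%, 17.4 to 24.7%). In mature B cells it was found in 96.0% and 96.0%, in T cells and ILC in 98.8% and 97.7%, and in fibroblasts, which lack CD45, in 3.09% and 2.63%. Plasma cells have fewer UMIs of other genes, so each cell was also thinned to 500 of these, a step added after seeing the data that left out 15 and 26 plasma cells. The shares were then 4.74% (2.92 to 7.22%) and 9.34% (6.89 to 12.3%) in plasma cells, 37.2% and 34.0% in B cells and 0.0976% and 0.217% in fibroblasts. Plasma cells thus lay between B cells and fibroblasts in both libraries, also without mixed barcodes, with 6.31% and 7.12%. Summed levels were 191 and 279 CPM in plasma cells against 911 and 787 in B cells.

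Lef1, the gene deleted in the epithelium of VApcMinL, had 2 UMIs in the plasma cells of ApcMin and 3 in those of VApcMinL. Apc had 28 and 44 UMIs. At these counts neither could check the genotype in plasma cells.

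Ligands for these receptors lay mostly in other cells of the same libraries. Tnfsf13b (Baff) had 33.5 and 49.5 CPM in fibroblasts and 32.2 and 27.0 in myeloid cells, and 3.89 and 9.84 in plasma cells, or 3.79 and 1.64 without mixed barcodes. Tnfsf13 (April) had at most 6 UMIs in any of the 7 classes in a library. Ccl25 had 733 and 1003 CPM and Ccl28 9.99 and 11.9 in epithelial cells, barcodes with at least 5 Epcam UMIs. Cxcl12 had 886 and 1192 CPM in endothelial cells and 533 and 835 in fibroblasts, which also held most of the Il6 UMIs, with 271 and 249 CPM. Pigr had 1494 and 2355 CPM in epithelial cells against 8.75 and 53.2 in plasma cells. The sort selected against CD45 and Epcam, so these levels describe only the cells that remained.

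Between genotypes the share of plasma cells was 6.62% of 6599 passing barcodes in ApcMin (6.03 to 7.25%) and 7.73% of 6569 in VApcMinL (7.10 to 8.41%), a ratio of 1.17 (1.03 to 1.33). This direction rested on the UMI minimum. With at least 5000 UMIs the ratio was 0.797 (0.676 to 0.939), and with at least 2000 it was 1.29 (1.15 to 1.45). Without mixed barcodes it was 1.06 (0.923 to 1.21), and over a denominator without hemoglobin-rich and Epcam-rich barcodes 1.01 (0.885 to 1.15). The ratio thus fell below 1 with at least 5000 UMIs and stayed above 1 in the other settings named here. The intervals without mixed barcodes and over the smaller denominator held 1.

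Gene levels of the plasma cells were close between the libraries. Of 1213 genes with at least 200 UMIs in the plasma cells, 94 (7.75%) were at least 2-fold higher in VApcMinL and 20 (1.65%) at least 2-fold lower, and the median absolute log2 ratio was 0.25. For the same genes without mixed barcodes, 58 were higher and 15 lower, with a median of 0.20. Of 24 ER folding genes 0 passed 2-fold in either direction, with a median log2 ratio of -0.37 that was -0.16 without mixed barcodes. The same held for 27 translocation genes (0 and 0, median -0.24, without mixed barcodes -0.09) and 13 homing and survival receptors (0 and 0, median -0.09, without mixed barcodes 0.06). Xbp1 had 4110 CPM in ApcMin and 2859 in VApcMinL, a ratio of 0.696 (0.663 to 0.729), and its log2 ratio of -0.52 was -0.34 without mixed barcodes. Of the folding genes 3 of 24 had a ratio above 1, of the translocation genes 2 of 27 and of all genes 613 of 1213. Without mixed barcodes these counts were 6 of 24, 8 of 27 and 607 of 1212. Most of these genes were thus lower in VApcMinL by less than 2-fold in both sets, and nearer to equal without the mixed barcodes.

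The 8 genes with the largest ratio were led by enterocyte genes. Fabp1, a fatty acid binding protein, had 11.7 CPM in ApcMin and 566 in VApcMinL (48.5-fold, 27.6 to 94.5), and Rbp2, Apoa1, Fabp2 and the antimicrobial lectin Reg3b were 37.0, 34.2, 30.2 and 16.4-fold higher. These were spread thinly, with Apoa1 in 64.0% and Fabp1 in 54.1% of the plasma cells of VApcMinL against 3.89% and 2.75% in ApcMin. The empty droplets showed the same direction, with 120 and 844 CPM for Fabp1 and 240 and 1298 for Apoa1, and mature B cells with 6.04 and 136 and with 8.46 and 170. The part of free RNA in this difference was not tested beyond these values. The other 3 of the 8, Fmo2, Timp3 and the endothelial gene Plvap, were 17.9, 16.5 and 15.3-fold higher, and 10 cells held 85.1%, 81.8% and 97.1% of their UMIs. Without mixed barcodes Plvap had 0 UMIs in ApcMin and 11 in VApcMinL.

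The 8 genes with the smallest ratio were pancreatic and erythroid. The pancreatic enzymes and cofactors Cpa1, Pnlip, 2210010C04Rik, Cela1, Prss2 and Clps were at 0.200, 0.223, 0.238, 0.269, 0.288 and 0.303 of their level in ApcMin, and the erythroid genes Hbb-bt and Bpgm at 0.252 and 0.292. For Pnlip, 252 CPM in ApcMin and 56.1 in VApcMinL came with 564 and 45.1 in empty droplets. In each of the 8 genes 10 cells held at least 62.7% of the UMIs, and 90.5% for Pnlip and 90.7% for Hbb-bt. Without the 10 deepest cells of each library the log2 ratios of Pnlip, 2210010C04Rik, Prss2 and Clps turned positive, at 0.35, 0.069, 0.0046 and 0.18.

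Some lists differed with and without the mixed barcodes. The marker lists of other cell types define those barcodes, so their fall without them is set by the definition. Myeloid markers were higher in VApcMinL, with 6 of 7 genes past 2-fold and a summed level of 1377 CPM in ApcMin and 3629 in VApcMinL, which was 109 and 173 without mixed barcodes. The 4 of 7 B cell identity genes past 2-fold higher in VApcMinL were the class II genes H2-Aa, H2-Ab1 and H2-Eb1 and the inhibitor Id3. H2-Aa was 2.95-fold higher (2.64 to 3.29), and its log2 ratio of 1.56 was 0.18 without mixed barcodes. The list median went from 1.26 to 0.10. Immediate early and heat shock genes had 5 of 19 past 2-fold and a median log2 ratio of 0.51, or 0.42 without mixed barcodes. Egr1, an immediate early factor, had 461 and 1101 CPM (1.26 on the log2 scale, 1.03 without mixed barcodes), while Dusp1 went from 1.18 to -0.16. Erythroid genes, at 83587 and 26427 CPM, had 5 of 5 past 2-fold lower, and 5527 and 2829 CPM without mixed barcodes.

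**Figure D5:**
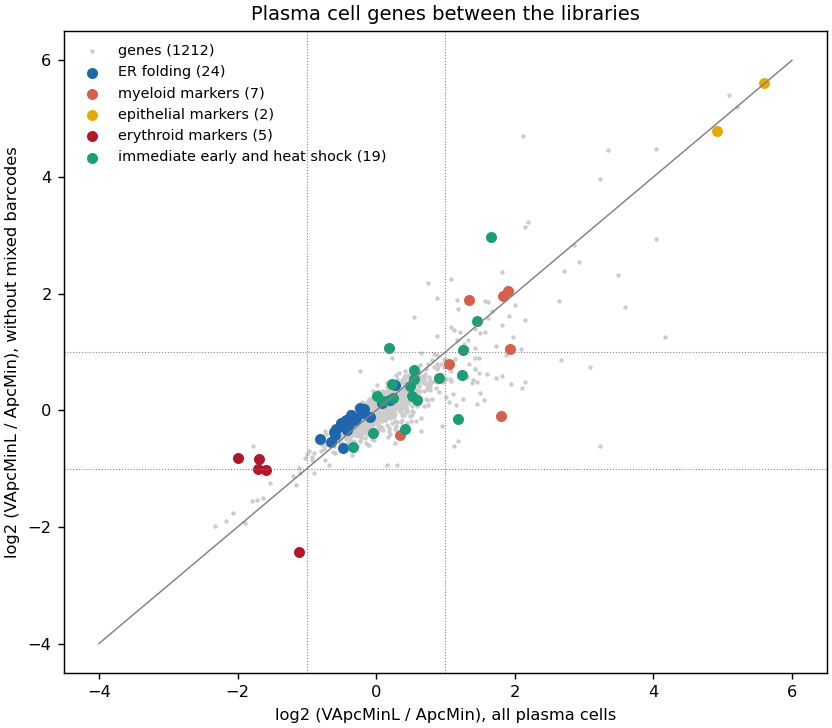
log2 ratio of VApcMinL over ApcMin for each gene with at least 200 UMIs in the plasma cells and UMIs in both libraries, over all plasma cells (horizontal axis) and without mixed barcodes (vertical axis), with 5 gene lists in colour, dotted lines at 2-fold and the line of equal values. ER folding genes lay near 0 on both axes with medians of -0.37 and -0.16, and the epithelial markers Fabp1 and Fabp2 stayed far above 2-fold on both.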

How the data were processed

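The authors sequenced 2 libraries of sorted lamina propria cells with the 10x Chromium 3' kit v3 and deposited UMI count matrices over 31053 genes, unfiltered and not normalized. The submitters' processing notes name Cell Ranger 2.1.1 and Seurat 3.1.1 with mm10, and the matrix header names software release 3.1.0. The libraries held 93203061 and 101609269 UMIs. Members, gene lists and tests were chosen with earlier results of these data known. With 1 library per genotype, counts were summed per library and set side by side without a p-value. Shares have Clopper-Pearson, levels Poisson and ratios conditional binomial 95% intervals. PCR and droplet effects are not covered by them. Gene lists covered secretion, receptors, B cell identity, stress and other cell types. Named were up to 4 genes per list of highest level, all plasma cell factors and homing receptors, the 8 extremes each way between libraries, 15 above and 10 below B cells, the 5 commonest variable genes of each chain in either library or over both, and genes with a promoter element. A few further list members (Canx, Eif2ak3, Ddit3, Ppp1r15a, Atf4, Egr1, Dusp1, Nr4a1, Fosb) were chosen after their values were seen. RefSeq promoters were matched by symbol or a unique older symbol. Doublets were not removed except in an alternative with Scrublet (scanpy 1.11.5). The scripts were tested on simulated data and used Python 3.11.15, numpy 2.4.6, scipy 1.17.1 and pandas 2.3.3. A comparison of IgA with other plasma cells could not be made, since no member had another isotype.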

Additional observations from a re-analysis of the deposited data

Results flagged for a closer look

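Barcodes below the UMI minimum also satisfied the rest of the rule. With at least 500 and under 3000 UMIs there were 130 such barcodes among 1498 in ApcMin and 391 among 3010 in VApcMinL. Immunoglobulins took a median of 73.9% and 75.5% of their UMIs, against 77.6% and 77.3% in the members. They were noticed because they lie outside every comparison above. With them the plasma cells would number 567 and 899.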

How the results depend on the processing

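No paired analysis was possible because the series holds a single library for either genotype. Of 106 values of the main results under alternatives, 86 stayed within their counting interval or within 1.5 times the main count, 18 moved and 2 changed direction. The share ratio of 1.17 turned to 0.797 with at least 5000 UMIs and to 0.955 (0.795 to 1.15) without barcodes with a UMI of Col1a1, Dcn, Cd3e, Csf1r, Cdh5 or Cdh1, and moved to 1.01 over the denominator without hemoglobin-rich and Epcam-rich barcodes. The median immunoglobulin share moved to 79.7% and 79.5% with the empty droplet profile at 3% subtracted, and in VApcMinL to 78.4% without those barcodes and 78.3% without mixed barcodes. The 94 higher and 20 lower genes became 6 and 7 of 482 without barcodes with such a UMI, 10 and 11 of 837 without mixed barcodes with the gene minimum applied again, 240 and 33 with at least 100 UMIs and 28 and 10 with at least 500. With CPM over all UMIs 13 were lower. Ptprc was found in 8.01% and 14.2% of plasma cells thinned to 3000 UMIs and in 4.74% and 9.34% at 500 other UMIs. Without the 10 deepest cells of each library the log2 ratios of Pnlip, 2210010C04Rik, Prss2 and Clps turned to 0.35, 0.069, 0.0046 and 0.18. Without barcodes with a UMI of the 6 genes above, Hbb-bt turned to 0.89 and Dusp1 to -0.91, and without mixed barcodes Fcer1g turned to -0.11 and Dusp1 to -0.16. The cause was not tested. The share of cells with dominant IgA was at lowest 99.8% under the alternatives run. The settings on mixed barcodes and on 500 UMIs were added after seeing the data. Depth limits the receptors and factors found in few cells, which may be undetected rather than absent.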

Other observations

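Without mixed barcodes and with at least 200 UMIs, the 10 genes past 2-fold higher in VApcMinL included Plac8 (332 against 73.2 CPM, 4.53-fold, 3.37 to 6.18) and the metallothionein gene Mt1 (557 against 212 CPM, 2.63-fold, 2.18 to 3.18). Over all members Plac8 was 1.68-fold higher, thus not past 2-fold, and Mt1 was 2.69-fold higher. Both genes were singled out after their values were seen. In empty droplets Plac8 had 594 and 321 CPM in VApcMinL and ApcMin and Mt1 798 and 337, so both went the same way there. No explanation was tested.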
